A study of Mus musculus with 8 samples.

Results

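The genes described here are the ABC transporters of subfamilies A, B, C, D and G together with 4 families of solute carriers that move organic ions: Slc22a, Slco, Slc10a and Slc47a. They were chosen by gene symbol among protein-coding genes, and all 94 such genes of the annotation were present among the 52551 rows of each count table. The livers were those of male C57BL/6 mice aged 6 weeks, and their messenger RNAs were read from the 3' ends by QuantSeq. The 4 PiZ libraries came from mice with PiZ, a transgene that encodes human alpha-1 antitrypsin in its misfolding Z form, which accumulates in the endoplasmic reticulum of hepatocytes. The 4 PiZ/Chop-/- libraries came from mice that carry the same transgene and also lack Chop, the gene Ddit3, which encodes a transcription factor of the stress response of the endoplasmic reticulum. The promoter of the transgene, the deleted part of Ddit3 and whether the libraries of a group come from separate mice are not given in the labels, so p-values describe variation among libraries, which may be technical. Wild-type livers, which the series' design also mentions, were not analysed here.

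Hepatocytes take up bile acids, drugs and other organic ions from blood at their sinusoidal face through carriers such as Slc10a1 and the Slco and Slc22a families. ABC pumps and the antiporter Slc47a1 then move these compounds, with phospholipid and cholesterol, across the canalicular membrane into bile. Other pumps, among them Abcc3 and Abcc4, return organic anions to the blood, a route known to gain weight in cholestasis. The remaining ABC proteins act in peroxisomes, mitochondria and lysosomes or move lipids.

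Total counts ran from 1650260 to 3064385 per library, and transporter genes held 0.349% to 0.468% of them. Ddit3, the deleted gene, stood at 85.4 to 191 CPM (read counts relative to the scaled library size) in the PiZ libraries and at 1.72 to 4.19 CPM in the PiZ/Chop-/- libraries, so its level followed the labels. The transgene SERPINA1 was counted in all libraries, at 950.2 to 1845 CPM in PiZ against 554 to 712 CPM in PiZ/Chop-/-. Its level fell 2.34-fold without overlap of the groups (log2 ratio -1.23, SE 0.22, adjusted p = 0.00873, edgeR), and the part of the lower transgene RNA in the differences given here was not tested. Hepatocyte markers were abundant, with summed levels of 29309 to 40848 CPM in PiZ against 34924 to 42110 CPM in PiZ/Chop-/- over 8 genes. Of 7 renal tubule markers, 5 had no count in any library.

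Of the 94 transporter genes, 42 had enough counts to be tested. Expression of 3 of them changed between PiZ/Chop-/- and PiZ livers: the efflux pump Abcc4 and the organic cation carrier Slc22a3 fell, and the carrier Slc22a30 rose (edgeR quasi-likelihood test, Benjamini-Hochberg adjusted p below 0.05 over 8669 genes). These 3 are 7.14% of the tested transporter genes, beside 1.03% called among all genes tested. By direction, 2 of the 42 fell beside 0.692% of all genes, and 1 rose beside 0.335%. Groups did not overlap in 8 of the 42, or 19.0%, beside 7.88% of all genes. An unadjusted p below 0.05 was found for 11 of the 42, or 26.2%, beside 13.1% of all genes. Log2 ratios were below 0 for 15 of the 42, beside 50.2% of all genes. The median log2 ratio over the 42 was 0.13, beside -0.0016 over all genes. Abcc4 passed the filter on low counts through the PiZ libraries alone, so its entry into the test was tied to its difference. In whole livers, fewer cells of one type and less RNA per cell cannot be told apart. Differences are given as log2 ratios of PiZ/Chop-/- to PiZ with the SE or the 95% confidence interval, and ± marks the SD over the 4 libraries of a group.

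Promoter sequences of the pair of genes with the deepest falls are shown first. The 2 annotated starts of Abcc4 both carry a short string that the NRF2 factor is known to recognise within a longer element. A part of NRF2 in the fall of Abcc4 was not tested. Reads from 3' ends do not show which start is used. The sequences are the 250 bases before each start in RefSeq (GRCm38.p6), all on the minus strand and written 5′ to 3′. Capitals mark a match to the antioxidant response core TGACNNNGC on either strand.
Abcc4, upstream start, chr14:118706220-118706469: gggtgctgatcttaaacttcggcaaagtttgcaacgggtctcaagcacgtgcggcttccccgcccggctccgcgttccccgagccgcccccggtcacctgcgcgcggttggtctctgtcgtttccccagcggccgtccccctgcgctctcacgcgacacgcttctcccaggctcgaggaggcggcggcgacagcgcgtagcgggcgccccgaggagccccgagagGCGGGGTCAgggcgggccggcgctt
Abcc4, internal start, chr14:118676932-118677181: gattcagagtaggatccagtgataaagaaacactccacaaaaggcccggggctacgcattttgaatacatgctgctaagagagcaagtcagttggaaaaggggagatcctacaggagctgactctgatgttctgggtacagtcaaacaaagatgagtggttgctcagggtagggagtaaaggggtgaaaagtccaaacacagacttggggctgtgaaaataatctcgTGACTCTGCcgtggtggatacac
Slc22a3, chr17:12507705-12507954: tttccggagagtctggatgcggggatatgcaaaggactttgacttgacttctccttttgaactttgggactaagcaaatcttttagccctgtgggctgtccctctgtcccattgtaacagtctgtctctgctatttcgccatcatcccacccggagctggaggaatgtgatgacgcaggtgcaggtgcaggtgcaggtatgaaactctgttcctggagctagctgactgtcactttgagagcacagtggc

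The core letters begin 25 bases before the upstream Abcc4 start, on the opposite strand to the gene, and 23 bases before the internal start, on the strand of the gene. The string is common: 12.4% of 32817 RefSeq windows of 300 bases (250 before to 50 after a start) hold it. It stood in 5 of the 38 windows of the tested transporter genes (13.2%), belonging to Abcc4, Abcc2, Abcb1a and Abca8b. Windows were found for 30 of the 42 tested genes. The windows of Slc22a3 and Slc22a30 held none of the 6 strings searched on both strands. Besides the core these were the C/EBP-ATF composite TGATGNAAN (3.96% of all windows) and 4 longer strings named here only as the CHOP-C/EBP site (0.0853%), the FXR inverted repeat (0.00914%), the ER stress element (0.119%) and the HNF1 palindrome (0.00914%). The composite string stood once among the tested transporter genes, 49 bases before the start of Slco2a1.

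Abcc4 (MRP4), which exports bile acids, conjugated steroids and cyclic nucleotides across the sinusoidal membrane, was the most strongly lowered transporter. It stood at 57.2, 95.2, 68.2 and 113 CPM in PiZ libraries 1 to 4 and at 4.65, 2.87, 3.97 and 4.66 CPM in PiZ/Chop-/- libraries 1 to 4. All PiZ libraries lay above all PiZ/Chop-/- libraries. As raw counts these were 93, 196, 212 and 238 for PiZ against 10, 5, 8 and 10 for PiZ/Chop-/-. The level fell 20.2-fold, from 83.4 ± 25.4 to 4.04 ± 0.839 CPM (log2 ratio -4.33, SE 0.30, adjusted p = 5.03e-07, edgeR). Abcc4 (ENSMUSG00000032849) spans chr14:118482692-118706219 on the minus strand (mm10). None of the 4 other genes tested within 1 Mb passed (edgeR; none at an unadjusted p below 0.05, and none by DESeq2 or limma-voom), and their log2 ratios ran from -0.30 to 0.73.

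None of the other tested sinusoidal or lateral efflux pumps passed. Abcc3 (MRP3), the closest to it in route, exports conjugated bile acids and glucuronides to the blood. Its levels were 24.6, 32.1, 40.8 and 48.4 CPM in PiZ against 32.5, 41.4, 52.1 and 68.5 CPM in PiZ/Chop-/-. The groups overlapped, and the log2 ratio was 0.41 (95% confidence interval -0.15 to 0.97, adjusted p = 0.543, edgeR). Abcc6, whose loss causes ectopic mineralisation, had -0.044 (interval -0.65 to 0.56), with the opposite sign in 4 of the 19 alternatives, up to 0.072 without PiZ/Chop-/- library 1. Abca1, which loads cholesterol onto apolipoprotein A-I, stood at 31.6 ± 3.72 CPM in PiZ against 23.8 ± 6.00 CPM in PiZ/Chop-/- (log2 ratio -0.42, SE 0.23, adjusted p = 0.465, edgeR). Macrophages also express Abca1. Summed Kupffer cell and macrophage markers were 1048 to 1511 CPM in PiZ against 821 to 977 CPM in PiZ/Chop-/-, with 11 of 12 below 0 and all 12 detected; their part in the Abca1 value was not tested. Abcc1, Abcc5, Abcc10, Abcc12 and Abcg1 had too few counts to be tested. Among these, Abcc1 had 9 counts in PiZ and 3 in PiZ/Chop-/-, Abcc5 had 35 counts in PiZ and 14 in PiZ/Chop-/- over 4 libraries each, and Abcg1 had 36 and 34.

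**Figure D1:**
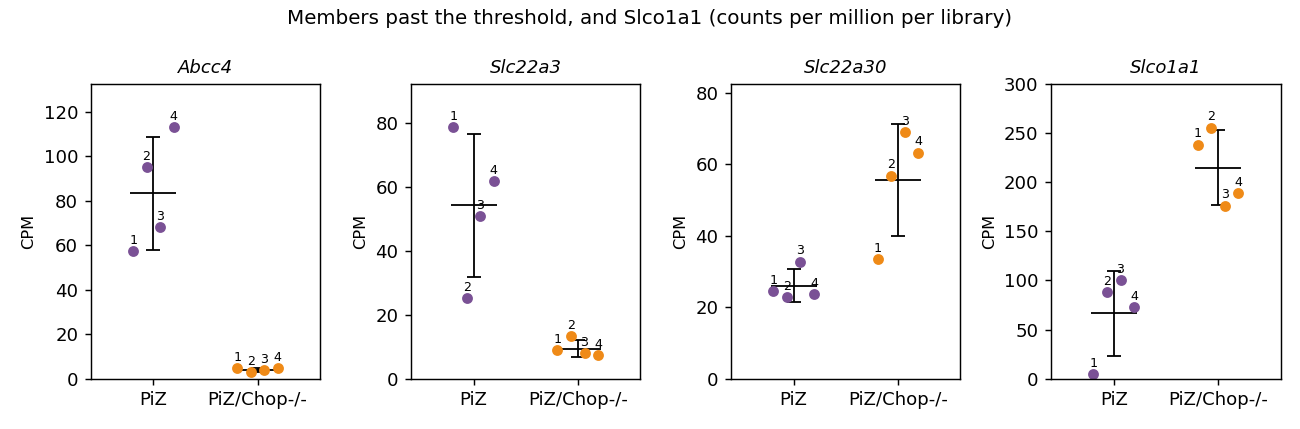
Scaled CPM (vertical axis, linear) in each library for the 3 transporter genes past the threshold and Slco1a1; points are libraries with their replicate number, and the line and bars are mean ± SD (n = 4 per group). Abcc4 is below 5 CPM in every PiZ/Chop-/- library, and PiZ library 1 is the low point of Slco1a1 at 4.31 CPM.

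Slc22a3 (OCT3), a carrier of monoamines and other organic cations, was the other transporter that fell. Its levels were 78.7, 25.3, 50.8 and 61.7 CPM in PiZ libraries 1 to 4 and 8.83, 13.2, 7.94 and 7.45 CPM in PiZ/Chop-/- libraries 1 to 4. PiZ library 2 was the lowest of its group and still above all PiZ/Chop-/- libraries. The mean fell 5.78-fold, from 54.1 ± 22.4 to 9.36 ± 2.63 CPM (log2 ratio -2.53, SE 0.33, adjusted p = 0.000804, edgeR).

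Slc22a3 (ENSMUSG00000023828, chr17:12418960-12507704, minus strand, mm10) ends within Plg, the plasminogen gene, which runs toward it on the plus strand. The 3' ends of the genes overlap over 426 bases (chr17:12418960-12419385), 420 of them exonic in both, and 3' reads fall in such regions. No label or file header gives the strand setting of the authors' counting, and the split of reads between Slc22a3 and Plg is uncertain. Plg, with 22024 counts in all, had a log2 ratio of 0.31 (SE 0.18, adjusted p = 0.491), opposite in sign to Slc22a3.

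Over the 10 genes tested within 1 Mb of Slc22a3, log2 ratios ran from -0.38 to 0.31 and none passed (edgeR; none at an unadjusted p below 0.05, and none by DESeq2 or limma-voom). Slc22a2, mainly a kidney carrier, had 3 counts in PiZ and none in PiZ/Chop-/-.

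Slc22a30, a rodent carrier of the Slc22a family, was the transporter that rose. It stood at 24.6, 22.8, 32.8 and 23.7 CPM in PiZ libraries 1 to 4 and at 33.4, 56.9, 69.0 and 63.4 CPM in PiZ/Chop-/- libraries 1 to 4. The groups were nearly in contact, between PiZ library 3 and PiZ/Chop-/- library 1. The mean rose 2.13-fold, from 26.0 ± 4.60 to 55.7 ± 15.6 CPM (log2 ratio 1.09, SE 0.25, adjusted p = 0.0447, edgeR). The call was lost with library size only (adjusted p = 0.0821), with limma-voom (0.0941), with a fit that was not robust (0.0648), with a replicate block (0.0570) and without PiZ libraries 1 and 4 together (0.139). Leaving out PiZ library 1, 2, 3 or 4 also ended it (adjusted p = 0.103, 0.114, 0.0634 and 0.0540), as did leaving out PiZ/Chop-/- library 2, 3 or 4 (0.0542, 0.165 and 0.145), and it held only without PiZ/Chop-/- library 1 (0.0143) among these 8 fits.

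Slc22a30 (ENSMUSG00000052562, chr19:8335371-8405111, minus strand, mm10) lies in an array of related Slc22a genes whose similar sequences could have divided or lost reads. Slc22a26, the one other gene of that array with enough counts, was uneven within both groups: 32.0, 6.80, 3.86 and 4.27 CPM in PiZ against 0, 2.30, 18.9 and 15.8 CPM in PiZ/Chop-/- (log2 ratio -0.25, SE 1.13, adjusted p = 0.954). Slc22a26 falls outside the rule for named genes and was chosen after its values were seen. Over the 26 genes tested within 1 Mb of Slc22a30, log2 ratios ran from -0.83 to 0.88 and none passed by edgeR, DESeq2 or limma-voom. An unadjusted p below 0.05 (edgeR) was found for 6 of the 26, beside 13.1% of all genes. Slc22a27, Slc22a28 and Slc22a29 had 33, 14 and 14 counts over the 8 libraries, too few to be tested.

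**Figure D2:**
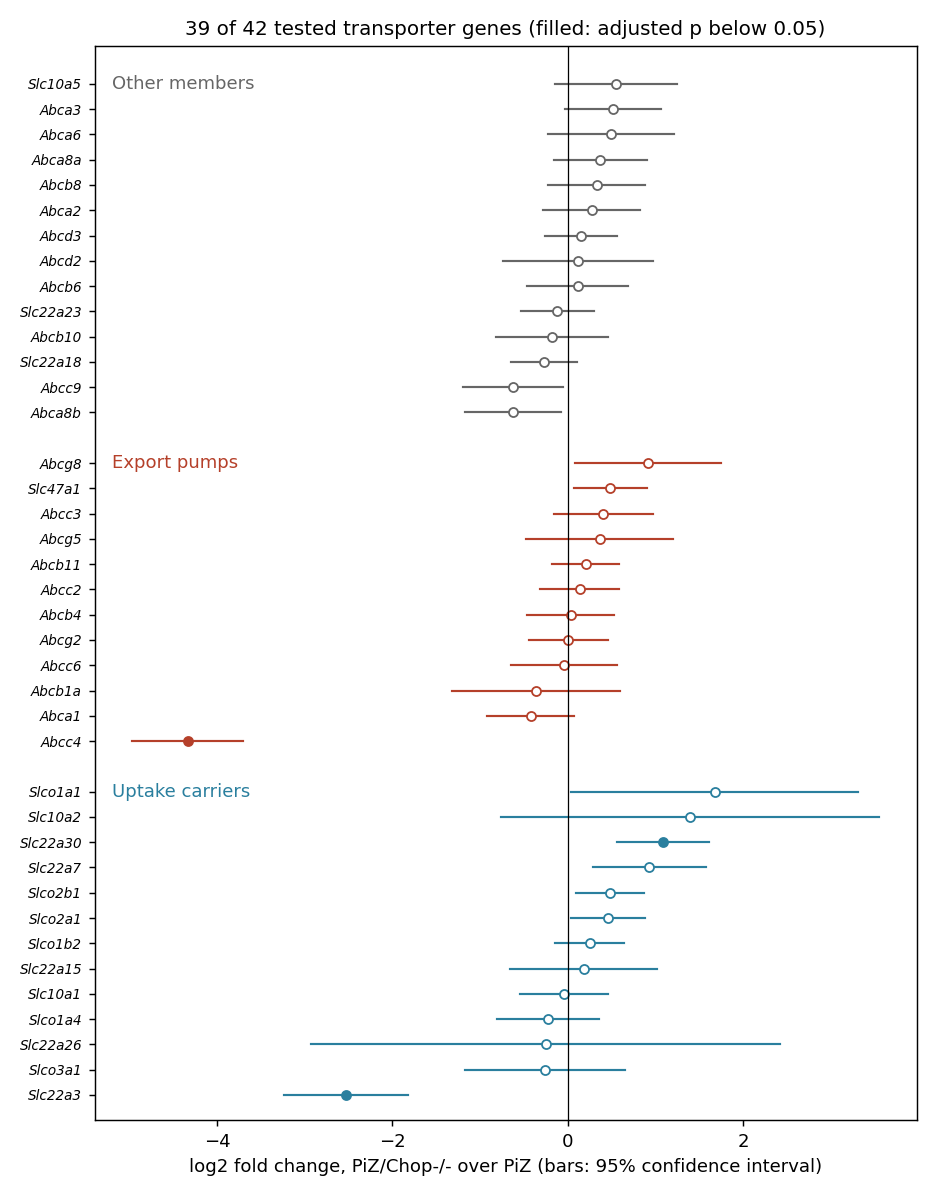
Log2 fold change of PiZ/Chop-/- over PiZ (horizontal axis) with its 95% confidence interval for 39 of the 42 tested genes, grouped as uptake carriers, export pumps and other members; filled points have an adjusted p below 0.05. Abcc4 and Slc22a3 stand apart on the left, at -4.33 and -2.53, and most other intervals include 0.

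Of 39 uptake carriers 14 were tested, 1 fell and 1 rose (14.3% called, beside 1.03% of all genes tested). Log2 ratios of 9 of the 14 were above 0, beside 4319 of 8669 for all genes (median 0.22, beside -0.0016). The Slco family of organic anion carriers had 6 tested members of 14, none past the threshold by edgeR, DESeq2 or limma-voom. An unadjusted p below 0.05 (edgeR) was found for 3 of the 6, or 50%, beside 13.1% of all genes. The widest gap was that of Slco1a1 (OATP1A1), a carrier known to be made mainly in male mouse liver. It stood at 4.31, 88.4, 100.3 and 72.6 CPM in PiZ libraries 1 to 4 and at 238, 256, 176 and 189 CPM in PiZ/Chop-/- libraries 1 to 4. The groups did not overlap, and PiZ library 1 lay far below the rest of its group. With all libraries the log2 ratio was 1.68 (SE 0.69, adjusted p = 0.370, edgeR). On leaving out PiZ library 1 it passed at 1.30 (adjusted p = 0.00968), and on leaving out PiZ libraries 1 and 4 it passed at 1.19 (adjusted p = 0.0105). No label sets PiZ libraries 1 and 4 apart from the others. Slco1a1 did not pass in any of the other 7 fits with 1 library left out.

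Other carriers of the Slco family were closer between the groups. Slco2b1, which carries steroid sulfates, stood at 52.3, 69.0, 52.4 and 65.0 CPM in PiZ against 86.9, 76.4, 83.9 and 86.2 CPM in PiZ/Chop-/-, without overlap (log2 ratio 0.48, 95% confidence interval 0.099 to 0.87, adjusted p = 0.270, edgeR). Slco2a1, the prostaglandin transporter, did not overlap either, at 33.2 to 44.2 CPM in PiZ against 47.2 to 64.1 CPM in PiZ/Chop-/- (0.46, SE 0.20, adjusted p = 0.341). Endothelial cells are known to express Slco2a1. Summed endothelial markers were 283 to 353 CPM in PiZ against 382 to 425 CPM in PiZ/Chop-/-, with 8 of 10 above 0 and all 10 detected; their part in the Slco2a1 value was not tested. Slco1b2, the mouse counterpart of the human hepatic OATP1B carriers, stood at 1206 ± 116 CPM in PiZ against 1433 ± 172 CPM in PiZ/Chop-/- (log2 ratio 0.25, interval -0.14 to 0.64, adjusted p = 0.602, edgeR). Slco1a4 had -0.23 (SE 0.28, adjusted p = 0.781), and Slco3a1 -0.26 (SE 0.43, adjusted p = 0.844). Both had opposite signs without PiZ libraries 1 and 4 (0.17 and 0.025).

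Slc10a1 (NTCP), which takes up conjugated bile acids with sodium, differed by less than the spread between libraries. It stood at 91.0, 95.7, 67.8 and 141 CPM in PiZ against 86.4, 74.7, 91.3 and 131 CPM in PiZ/Chop-/-. The log2 ratio was -0.041 (95% confidence interval -0.55 to 0.46, adjusted p = 0.962, edgeR), and its sign turned in 4 of the 19 alternatives, up to 0.24 without PiZ libraries 1 and 4. Slc10a2, the bile acid carrier of ileum and bile ducts, had 0 to 5.83 CPM in PiZ against 2.48, 2.79, 5.59 and 25.3 CPM in PiZ/Chop-/-, the last in library 2 (log2 ratio 1.40, SE 0.95, adjusted p = 0.581). Summed cholangiocyte markers were 52.2 to 73.2 CPM in PiZ against 50.6 to 88.7 CPM in PiZ/Chop-/-, with 1 of the markers at 0 in all libraries. Only 3 of the 10 had enough counts to be tested, 1 below 0 and 2 above. The highest means were those of Slc4a2 (26.0 CPM in PiZ, 32.8 in PiZ/Chop-/-) and Sox9 (22.7 and 26.3), so the sum says little of the other markers. Their part in the Slc10a2 value was not tested.

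Slc22a7 (OAT2), an organic anion carrier of the sinusoidal membrane, stood at 38.1, 40.8, 33.1 and 17.1 CPM in PiZ against 86.0, 56.3, 33.8 and 68.9 CPM in PiZ/Chop-/-. PiZ/Chop-/- library 3 lay within the PiZ range, and the log2 ratio was 0.93 (95% confidence interval 0.28 to 1.57, adjusted p = 0.199, edgeR). Slc22a7 passed when low counts were not filtered (0.94, adjusted p = 0.0101). Slc22a15 had 0.18 (SE 0.39), and -0.068 without PiZ library 1. Slc22a5, the carnitine carrier, had 7 counts in PiZ and 11 in PiZ/Chop-/- and was not tested.

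**Figure D3:**
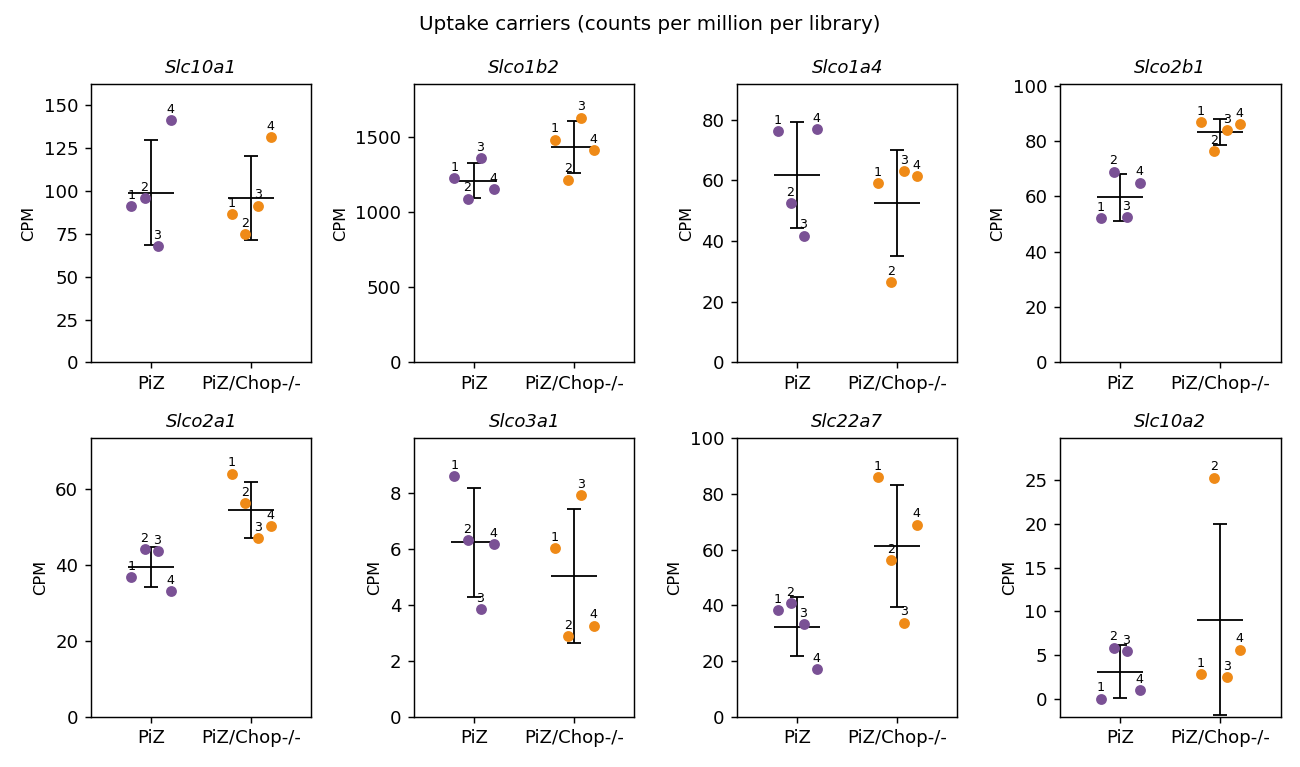
Scaled CPM (vertical axis, linear) per library for 8 uptake carriers; points are libraries with their replicate number, and the line and bars are mean ± SD (n = 4 per group). Slco2b1 and Slco2a1 are higher in every PiZ/Chop-/- library, the groups overlap for Slc10a1 and Slco3a1, and PiZ/Chop-/- library 2 is alone at 25.3 CPM for Slc10a2 and at 26.4 CPM for Slco1a4.

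Of 19 export pumps 12 were tested, 1 fell and none rose (8.33% called, beside 1.03% of all genes tested). The 1 called was Abcc4, which passed the filter on low counts through the PiZ libraries alone, so this share was tied to its difference. Log2 ratios of 8 of the 12 were above 0, beside 4319 of 8669 for all genes (median 0.083, beside -0.0016). Of the 12 pumps, 8 act at the canalicular membrane, and none of these 8 passed by edgeR, DESeq2 or limma-voom. An unadjusted p below 0.05 (edgeR) was found for 2 of the 8, or 25%, beside 13.1% of all genes. Abcb11, the bile salt export pump, stood at 162, 145, 175 and 227 CPM in PiZ against 214, 213, 197 and 194 CPM in PiZ/Chop-/-. The groups overlapped, and the log2 ratio was 0.21 (95% confidence interval -0.18 to 0.59, adjusted p = 0.672, edgeR). Abcc2, which exports bilirubin glucuronides and glutathione conjugates, had 0.13 (interval -0.32 to 0.59), Abcb4, the phosphatidylcholine floppase, 0.032 (-0.47 to 0.53), and Abcg2, a pump of urate and sulfated compounds, 0.0076 (-0.44 to 0.45). The signs of these 3 turned without PiZ library 1 (-0.027, -0.027 and -0.049), and those of Abcb4 and Abcg2 turned with library size only (-0.034 and -0.070). Abcb1a, a multidrug pump, was low, at 2.85 to 7.77 CPM in PiZ against 2.30 to 7.45 CPM in PiZ/Chop-/- (-0.36, SE 0.45).

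Abcg5 and Abcg8 form the heterodimer that moves cholesterol and plant sterols into bile, and their genes lie head to head on chromosome 17. Abcg8 stood at 24.6, 72.4, 57.9 and 34.2 CPM in PiZ libraries 1 to 4 and at 86.0, 42.5, 99.8 and 130 CPM in PiZ/Chop-/- libraries 1 to 4. Abcg5 stood at 32.6, 77.7, 53.4 and 30.4 CPM in PiZ against 57.6, 26.4, 82.9 and 82.9 CPM in PiZ/Chop-/-. For both, PiZ libraries 1 and 4 and PiZ/Chop-/- library 2 were the low ones, and the groups overlapped. The log2 ratio was 0.91 for Abcg8 (SE 0.38, adjusted p = 0.339, edgeR) and 0.36 for Abcg5 (SE 0.38, adjusted p = 0.737). Abcg8 passed when low counts were not filtered (0.92, adjusted p = 0.00658), and Abcg5 was at -0.058 without PiZ libraries 1 and 4.

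Slc47a1 (MATE1), the antiporter that releases organic cations into bile, stood at 104, 110, 75.2 and 72.6 CPM in PiZ against 108, 115, 136 and 146 CPM in PiZ/Chop-/-. The groups overlapped slightly, between PiZ library 2 and PiZ/Chop-/- library 1. The log2 ratio was 0.48 (95% confidence interval 0.066 to 0.90, adjusted p = 0.311, edgeR).

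**Figure D4:**
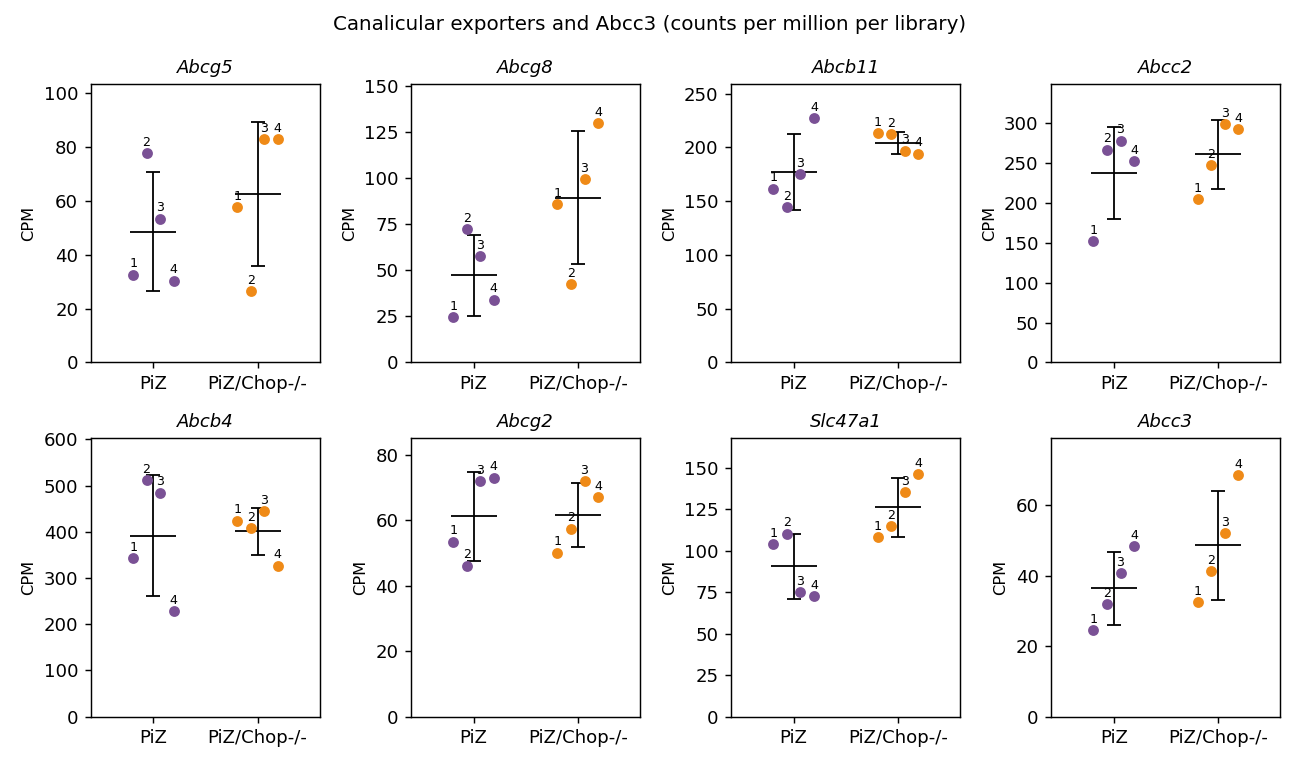
Scaled CPM (vertical axis, linear) per library for 7 canalicular exporters and Abcc3; points are libraries with their replicate number, and the line and bars are mean ± SD (n = 4 per group). The groups overlap in all 8 panels, and Abcg5 and Abcg8 share their low libraries.

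To set uptake beside export, the median of centred log2 CPM over the tested members was taken in each library. For the uptake carriers it was -0.12, -0.052, -0.17 and -0.15 for PiZ libraries 1 to 4, against 0.13, 0.018, 0.21 and 0.23 for PiZ/Chop-/- libraries 1 to 4. For the export pumps it was -0.17, 0.13, 0.13 and 0.14 in PiZ and -0.14, -0.026, 0.32 and 0.092 in PiZ/Chop-/-. The uptake medians did not overlap between the groups and the export medians did. The genes within a library are not replicates, and the difference between the sets was not tested. These medians were taken over the genes that passed the filter on low counts and under no other setting. The median log2 ratio, a related measure, was 0.22 for uptake beside 0.083 for export. Its order turned in 2 settings that tested 73 members: -0.0036 beside 0.031 with no filter, and -0.010 beside 0.028 with DESeq2.

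**Figure D5:**
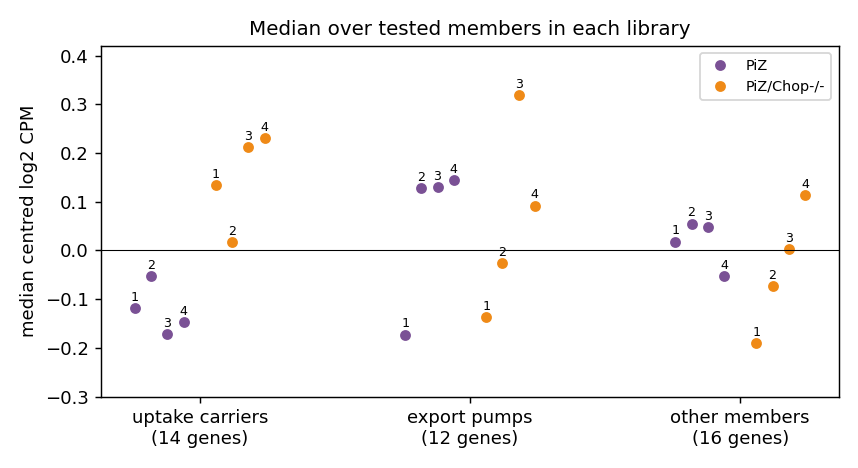
Median over tested members of log2 CPM after subtracting each gene's mean (vertical axis), for 14 uptake carriers, 12 export pumps and 16 other members; each point is a library with its replicate number. The uptake medians run from -0.17 to -0.052 in PiZ and from 0.018 to 0.23 in PiZ/Chop-/-, and the other sets overlap between the groups.

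Of the 36 remaining members 16 were tested, and none passed by edgeR, DESeq2 or limma-voom (median 0.12). An unadjusted p below 0.05 (edgeR) was found for 2 of the 16, or 12.5%, beside 13.1% of all genes. Abcd3, which imports long-chain acyl-CoA and bile acid precursors into peroxisomes, stood at 295 ± 69.5 CPM in PiZ against 327 ± 17.5 CPM in PiZ/Chop-/- (log2 ratio 0.15, 95% confidence interval -0.26 to 0.56, adjusted p = 0.792, edgeR). Log2 ratios of the organelle transporters Abcb6, Abcb8, Abcb10 and Abcd2 lay between -0.18 and 0.33. Among the lipid transporters of subfamily A, Abca8b had -0.63 (SE 0.26, adjusted p = 0.314) and its near copy Abca8a 0.37 (SE 0.25, adjusted p = 0.559), a pair whose reads may have been shared; Abca8a was named after its values were seen. Abca3 had 0.52 (SE 0.26, adjusted p = 0.406).

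Abcc9, the regulatory subunit of potassium channels in pericytes and muscle, stood at 12.8 to 21.5 CPM in PiZ against 9.78 to 12.1 CPM in PiZ/Chop-/- (log2 ratio -0.62, SE 0.27, adjusted p = 0.339, edgeR). The groups did not overlap. Summed stellate cell markers were 364 to 467 CPM in PiZ against 260 to 404 CPM in PiZ/Chop-/-, with 7 of 7 tested below 0 and none of the 10 at 0 in all libraries. Among them Col1a1, a collagen gene, passed by DESeq2 and not by edgeR (log2 ratio -1.15, adjusted p = 0.0788). The part of these markers in the Abcc9 value was not tested.

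The 52 transporter genes that were not tested held at most 77 counts each over the 8 libraries. Of these, 21 had no count in any library, which allows up to 0.175 CPM over all libraries (3 counts of 17122720, counting error only). They include Slco1a5, Slco1a6, Slc22a6, Slc22a8, Slc22a12 and Slc47a2, most of them known as kidney or gut carriers.

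Factors that control these transporters did not pass singly. Of 19 regulators, all tested, none passed by edgeR, DESeq2 or limma-voom. For 1 of the 19, or 5.26%, the unadjusted p was below 0.05 (edgeR), beside 13.1% of all genes. Log2 ratios of 17 were above 0, beside 4319 of 8669 for all genes, and the median was 0.16. Nr1i3, the drug-sensing receptor CAR, had 0.86 (SE 0.30, adjusted p = 0.258), and Nfe2l2, which encodes NRF2, had 0.45 (SE 0.24, adjusted p = 0.442). Of 19 other genes of bile transport and canalicular structure 16 were tested, and none passed by edgeR, DESeq2 or limma-voom (median 0.18). For 2 of the 16, or 12.5%, the unadjusted p was below 0.05 (edgeR), beside 13.1% of all genes. Fabp1, the liver fatty acid-binding protein, had 0.81 (SE 0.30, adjusted p = 0.265), and Rab11a, a GTPase of canalicular vesicle traffic, had -0.60 (SE 0.21, adjusted p = 0.235).

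Of 20 genes known as NRF2 targets 17 were tested, 3 fell and none rose (17.6% called, beside 1.03% of all genes tested). Log2 ratios of 14 of the 17 were below 0, beside 50.2% of all genes (median -0.30, beside -0.0016). Falls of Cbr3 and Gpx2 were known when the list was made, so the list is not independent evidence of direction. Gpx2, a glutathione peroxidase, had -3.85 (SE 0.34, adjusted p = 1.04e-05, edgeR), Cbr3, a carbonyl reductase, -3.95 (SE 0.36, adjusted p = 1.53e-05), and Gstm3, a glutathione transferase, fell from 580 ± 237 to 145 ± 51.8 CPM (SE of the log2 ratio 0.35, adjusted p = 0.0173). Gstm3 missed the threshold without PiZ library 2 or 4 (adjusted p = 0.0580 and 0.0643) or PiZ/Chop-/- library 3 (0.0831), and belongs to a family of similar sequences. Others of the list were nearer 0, with Gstm1 at -0.89 (adjusted p = 0.208, edgeR) and Srxn1 at -0.78 (0.232). Nqo1, a usual reporter of NRF2, had -0.53 (0.551). The 3 targets above 0 were Gclc at 0.22 (0.719), Gsr at 0.12 (0.927) and Txnrd1 at 0.011 (0.993). Hmox1 had -0.024 (0.990) and Gclm -0.14 (0.816). Nqo1, Gclc, Gsr, Txnrd1, Hmox1 and Gclm were chosen after their values were seen. Of 11 CAR and PXR targets none passed (edgeR), and 4, or 36.4%, had an unadjusted p below 0.05, beside 13.1% of all genes. None passed by limma-voom and 2, Alas1 and Cyp2c55, by DESeq2, which called 208 over all genes. The median log2 ratio of the list was -0.34. Alas1, the first enzyme of haem synthesis, had 1.91 (SE 0.56, adjusted p = 0.214, edgeR) and Cyp2c55, a cytochrome P450, -1.35 (SE 0.33, adjusted p = 0.0648). Alas1 was uneven in PiZ/Chop-/-, with raw counts of 329, 224, 1191 and 1355 in libraries 1 to 4. In PiZ libraries 1 to 4 its raw counts were 130, 239, 328 and 205.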

How the data were processed

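Expression was measured in 8 liver libraries, 4 per group, with single-end reads of 75 bases per the labels' protocols. Per the file headers, the authors deposited unnormalized raw counts for each gene. The submitters' processing notes name STAR, HTSeq and mm10; versions, annotation, strand setting and treatment of multiply matching or duplicate reads are not given. Groups and replicate numbers came from the sample titles. Of 52550 mouse gene IDs, 52403 were found in GENCODE M21, an mm10 annotation that may not be the authors' release.

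The test was that of edgeR 4.0.16 (R 4.3.3), after filterByExpr with a minimum count of 10 and TMM scaling, by robust glmQLFit and glmQLFTest without covariates, Benjamini-Hochberg adjustment over 8669 genes. The SE is the log2 ratio divided by the square root of F, and 95% intervals use the fit's degrees of freedom. The script was tested on simulated data. A few genes that were tested are not reported here. Uptake, export and other roles, pathway lists, markers and members were chosen with earlier results of these data known. Named genes were all called members, 24 liver transporters chosen by name where tested, the 3 of lowest p among the rest of each role, and from each pathway list the called genes and the 2 of lowest p. Alternatives were RLE, upper quartile or no composition scaling, DESeq2 1.42.0, limma-voom (limma 3.58.1) and other filters. Further ones were a fit that was not robust, 20 abundant genes left out, a replicate block, and libraries left out. Libraries were left out singly, and PiZ libraries 1 and 4 also together, a pair that no label sets apart.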

Additional observations from a re-analysis of the deposited data

Results flagged for a closer look

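In the 58 groups of 4 examined for the 29 tested members named, 2 had a library whose gap to the next exceeded Dixon's 95% critical value, and chance flags about 1 group in 20. Both were PiZ/Chop-/- library 2. Slc10a2 stood at 25.3 CPM there, against 2.48 to 5.59 CPM in the other libraries of its group. Slco1a4 stood at 26.4 CPM there, against 59.0 to 63.0 CPM in the others. Without this library the log2 ratio was 0.15 for Slc10a2 and -0.0051 for Slco1a4, and neither passed with or without it.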

How the results depend on the processing

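Abcc4 and Slc22a3 passed in all 19 alternatives, with log2 ratios of -4.47 to -4.14 and -2.76 to -2.30 when 1 library was left out. Slc22a30 kept its direction and lost its call in 12 of the 19. Over all genes 89 passed; 208 did with DESeq2, 357 with no filter, and 46 to 169 with 1 library left out. The 3 members called became 5 with no filter and 2 to 3 with 1 library left out. The 2 uptake carriers called became 1 with library size only, limma-voom, a fit that was not robust and the replicate block, and 1 to 2 with 1 library left out. The 1 export pump called became 2 with no filter and remained 1 with any library left out. The uptake median of 0.22 was 0.13 with library size only, -0.010 with DESeq2, -0.0036 with no filter, 0.31 without PiZ libraries 1 and 4, and 0.14 to 0.34 with 1 library left out. DESeq2 and the fit with no filter each tested 73 members, not 42. The cause of the shifts in the uptake median was not tested for any of these settings. The export median ran from -0.027 to 0.16 and that of the other members from 0.082 to 0.27 with 1 library left out. Same-numbered libraries are not shown to be pairs: their deviations from the group means correlated at 0.046, -0.051, 0.0061 and 0.049. A replicate block took the calls from 89 to 76. Depth limits genes with few counts. The 52 members not tested fell short of the filter on low counts, though a single library held up to 23 counts of a member.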
